A study of Mus musculus with 6 samples.

Results

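The genes described here encode enzymes, regulators and a transport protein of cholesterol and fatty acid synthesis. They were taken from a list of 30 gene names, and all 30 were found, each once, among the 23235 rows of the RNA-seq table. The list holds 16 genes of the cholesterol arm, 8 genes of the fatty acid arm, and 6 genes for regulators and sterol transport. RNA was sequenced from E14Tg2a, a line of mouse embryonic stem cells (ESCs) used between passages 37 and 40. The ESC group has 3 samples, from cultures with leukemia inhibitory factor (LIF), which keeps them pluripotent. Cells of the same line grown as LIF-free monolayers in 1 μM retinoic acid (RA) for 2 days (48 h), called neuronal cells (NCs) by the study, gave the other 3. Serum was part of the medium, all samples came from this 1 line, and each sample was made from 2 culture plates. Because RA was added when LIF was withdrawn, the effects of these 2 changes cannot be told apart.

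Cells make cholesterol from acetyl-CoA through mevalonate, squalene and lanosterol, and they make fatty acids from the same precursor by chain building, elongation and desaturation. Both routes are controlled by the SREBP transcription factors. SREBPs are held in the endoplasmic reticulum with their escort SCAP, bound to INSIG proteins when sterols are plentiful, and are released to act in the nucleus when sterols run low. Neural tissue is rich in cholesterol and in long polyunsaturated fatty acids, in whose making Fads1 and Fads2 act.

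The authors deposited 1 FPKM value per gene and condition. FPKM is the abundance of a transcript, corrected for its length and for sequencing depth, so levels of different genes can be set beside each other. Values of single samples and fragment counts are not in the columns used here, so no SD, interval or test is given, the depth of each sample is unknown, and each difference is a description of 2 values without a replicate check. Ratios are NC over ESC, and 12784 genes with a mean FPKM of at least 1 over both conditions served as the background, called measured genes below. All 30 listed genes passed this filter, with FPKM values between 3.69 and 278.

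The scale of the 2 columns bears on small differences. The median log2 ratio of the measured genes was -0.04, but the FPKM of the whole table summed to 770592 in ESCs and 628679 in NCs. Setting the sums equal, as TPM would, adds 0.29 to every log2 ratio. A gene lower in NCs by less than 1.23-fold is therefore higher on that scale, and such genes are named where they are described. The rank of a gene's ratio among all measured genes does not depend on the scale and is given for some of the genes.

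The labelled cell states were checked against marker genes. All 7 pluripotency markers were at least 2-fold lower in NCs, beside 9.93% of all measured genes. All 6 RA response markers were at least 2-fold higher, beside 11.1% of all measured genes. Among 8 neural markers, Pax6 had an FPKM of 3.64 in ESCs and of 65.2 in NCs and Sox1 had an FPKM of 1.77 in ESCs and of 21.8 in NCs. The neuronal genes Tubb3 and Map2 had lower values in NCs (7.54 FPKM against 33.4 FPKM, and 2.35 FPKM against 3.18 FPKM), and Dcx did not exceed 0.334 FPKM. Of the 6 measured endoderm markers, 5 were at least 2-fold higher in NCs, the list summing to an FPKM of 16.9 in ESCs and of 39.3 in NCs, with Afp at 0.0871 FPKM or less. Of the 4 fibroblast markers, 3 were at least 2-fold higher in NCs, but Thy1 had an FPKM of 9.64 in ESCs and of 1.80 in NCs. The fibroblast list summed to an FPKM of 19.4 in ESCs and of 41.8 in NCs. For both lists, the share of all measured genes at least 2-fold higher in NCs was 11.1%. All 3 mesoderm markers lay under 1 FPKM in both conditions. Of the glial markers, Gfap had an FPKM of 0.354 in ESCs and of 0.745 in NCs, and Mbp an FPKM of 3.18 in ESCs and of 4.78 in NCs. The part of these other cell types in the lipid gene values was not tested, and fewer cells of a type and less RNA per cell cannot be told apart in such cultures.

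Of the 30 genes, the desaturase genes Scd2, Fads1 and Fads2 were at least 2-fold higher in NCs. These 3 of 30 are a share near that of all measured genes, of which 11.1% were at least 2-fold higher in NCs. None of the 30 was at least 2-fold lower, against 9.93% of measured genes. At a limit of 1.5-fold, 6 genes were higher (19.3% of measured genes) and 2 were lower (18.8% of measured genes). The lower FPKM was in NCs for 17 of the 30 genes, beside 52.4% of measured genes. Once the FPKM sums were set equal, this held for 12 of the 30, beside 4204 of the 12784 measured genes. Most of the list thus lay within the range that the bulk of measured genes covered, and the median log2 ratio of -0.12 became 0.17 with equal sums.

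**Figure D1:**
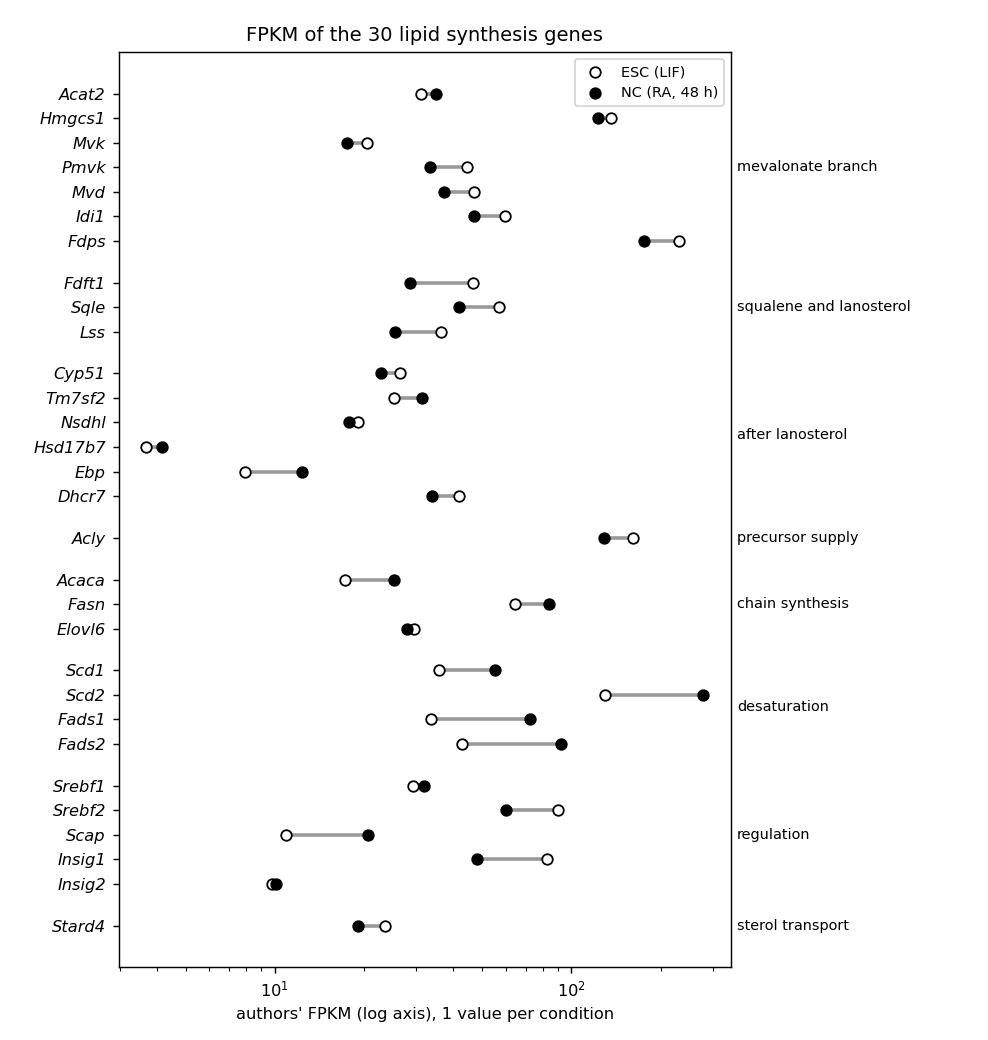
The authors' FPKM of the 30 genes on a log axis, with ESCs as open circles and NCs as filled circles, 1 pooled value per condition and no error, grouped by place in the pathway. The 4 desaturases have their filled circle to the right, and Scd2 lies at 129 FPKM in ESCs and at 278 FPKM in NCs, the highest value of the list.

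For 23 of the genes the RefSeq promoter set holds 1 or more promoters (GRCm38.p6, 250 bases before to 50 bases after each start site), 31 promoters in all. The 150 bases before the start site are printed for 6 genes. Hmgcs1 is shown for its sterol regulatory element, Idi1 and Lss as 2 further enzymes of the cholesterol arm, Insig1 for the lowest ratio of the list, Srebf2 as the regulator of that arm, and Fads2 as the desaturase in the promoter set. Capitals mark matches, on either strand, to the sterol regulatory element TCACNCCAC, the CCAAT box, whose name spells its letters and which reads ATTGG when inverted, the GC box, with the letters GGGCGG or inverted CCGCCC, and the E-box, with the palindrome CACGTG. No 2 of these motifs overlap in the stretches shown.
Hmgcs1 (chr13:119690201-119690350, plus strand): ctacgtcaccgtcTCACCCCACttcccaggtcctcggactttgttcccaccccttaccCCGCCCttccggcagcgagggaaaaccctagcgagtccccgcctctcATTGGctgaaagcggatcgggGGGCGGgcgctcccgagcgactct
Idi1 (chr13:8885456-8885605, plus strand): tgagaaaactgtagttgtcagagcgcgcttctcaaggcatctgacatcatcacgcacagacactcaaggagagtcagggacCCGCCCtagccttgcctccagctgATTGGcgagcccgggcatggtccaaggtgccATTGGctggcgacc
Lss (chr10:76531455-76531604, plus strand): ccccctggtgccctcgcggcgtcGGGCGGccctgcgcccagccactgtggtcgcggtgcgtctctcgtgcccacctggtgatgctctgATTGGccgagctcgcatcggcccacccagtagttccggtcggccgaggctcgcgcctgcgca
Insig1 (chr5:28071262-28071411, plus strand): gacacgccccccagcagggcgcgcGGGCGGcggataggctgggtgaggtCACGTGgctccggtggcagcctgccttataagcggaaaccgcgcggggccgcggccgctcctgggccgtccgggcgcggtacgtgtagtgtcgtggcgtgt
Srebf2 (chr15:82147119-82147268, plus strand): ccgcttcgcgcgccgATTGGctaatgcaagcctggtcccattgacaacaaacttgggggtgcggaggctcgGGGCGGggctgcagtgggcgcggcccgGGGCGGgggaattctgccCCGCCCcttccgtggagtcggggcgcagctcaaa
Fads2 (chr19:10101504-10101653, minus strand): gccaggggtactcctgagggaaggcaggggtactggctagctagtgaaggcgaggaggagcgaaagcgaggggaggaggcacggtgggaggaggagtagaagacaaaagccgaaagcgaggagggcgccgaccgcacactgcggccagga

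The CCAAT box, the recognition sequence of NF-Y, and the GC box, a site of SP1 and related factors, were in most promoters of the cholesterol arm. A CCAAT match lay in a promoter of 12 of the 13 cholesterol genes with an entry, 2 of the 5 fatty acid genes and 4 of the 5 regulators, beside 41.1% of all 27025 genes in the set. Within the 100 bases before the start site, 11 of the 13 cholesterol genes, or 84.6%, held a match, compared with 21.6% of all genes. The nearest CCAAT box before the start site, in either orientation, began between 12 and 62 bases from it in those 11 genes and 136 bases from it in Pmvk. The GC box was in a promoter of 19 of the 23 genes, or 82.6%, beside 38.2% of all genes. The E-box was found in 4 of the 23 genes, or 17.4%, beside 8.09% of all genes. Among the 23 genes, the exact sterol regulatory element was found in Hmgcs1 alone, 137 bases before its start site, and in 1.44% of all genes. Sites that depart from these letters were not searched for. Fdps, Fdft1, Sqle, Scd1, Scd2, Fads1 and Stard4 have no promoter in the set and were not scanned. The 27025 genes of the set were not filtered by expression, whereas all 30 listed genes were among the measured genes. The shares of these motifs among measured genes alone were not computed. Motif matches describe the letters of these windows only, and some genes have several promoters.

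**Figure D2:**
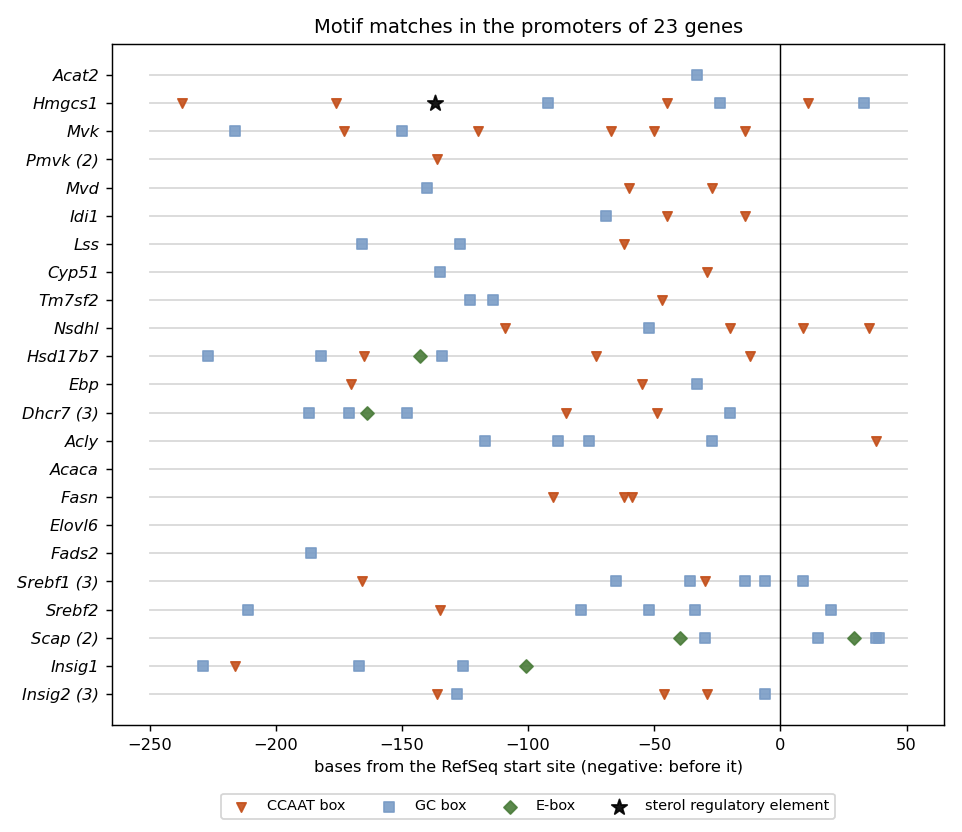
Positions of motif matches on either strand in RefSeq promoters of 23 genes, in bases from the start site (the line at 0), with the number of promoters in parentheses where it exceeds 1. CCAAT boxes (triangles) lie within the 100 bases before the start site in 11 of the 13 cholesterol genes, and the star at Hmgcs1 is the sterol regulatory element.

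The mevalonate branch builds the isoprenoid units of cholesterol. Acat2, which joins acetyl-CoA molecules, had an FPKM of 31.1 in ESCs and of 34.9 in NCs. Hmgcs1, which makes HMG-CoA, had an FPKM of 136 in ESCs and of 123 in NCs. Both were near the middle of the measured genes, of which 63.1% had a lower ratio than Acat2 and 42.9% a lower ratio than Hmgcs1. The mevalonate kinase gene Mvk had an FPKM of 20.4 in ESCs and of 17.5 in NCs. The next enzymes had larger differences in the same direction. Pmvk, the kinase that follows, was 1.33-fold lower in NCs, with an FPKM of 44.3 in ESCs and of 33.3 in NCs. Mvd, which makes isopentenyl diphosphate, was 1.26-fold lower, with an FPKM of 46.7 in ESCs and of 37.2 in NCs. Idi1, which isomerizes it, was 1.27-fold lower, with an FPKM of 59.6 in ESCs and of 46.8 in NCs. Fdps, which makes farnesyl diphosphate, had the highest ESC value of all 30 genes, 230.5 FPKM, and was 1.31-fold lower in NCs, at 176 FPKM. Of the 7 genes, 6 had the lower FPKM in NCs, and 4 did with equal sums, Hmgcs1 and Mvk being the genes that turned. Mvd and Idi1 were close to equal with equal sums, at log2 ratios of -0.035 and -0.055. Among all measured genes, 52.4% were lower as deposited and 4204 of 12784 with equal sums.

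Some of these values can hold fragments of other genes. Of the 50-base words in Acat2 transcripts, 39.1% also occur in its neighbour Acat3, which had an FPKM of 36.7 in ESCs and of 37.3 in NCs. Such words made up 26.2% in Fdps, 25.3% in Idi1 and 11.6% in Hmgcs1, shared mainly with Gm43738, Gm13502 and Gm48342 in that order. How the authors assigned fragments shared in this way is not given in the sources used here, so the levels of these genes are less certain.

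The enzymes from farnesyl diphosphate to lanosterol had the lowest ratios of the arm. Gene positions here and below are on GRCm38 (mm10), from GENCODE. Fdft1 (squalene synthase; chromosome 14, 63145150 to 63179578), which commits the pathway to sterols, had an FPKM of 46.5 in ESCs and of 28.6 in NCs, a 1.63-fold lower value. Sqle (squalene epoxidase; chromosome 15, 59315077 to 59331192), a rate-limiting oxygen-dependent enzyme, had an FPKM of 57.2 in ESCs and of 41.7 in NCs. Lss (lanosterol synthase; chromosome 10, 76531588 to 76557138), which closes the sterol rings, had an FPKM of 36.5 in ESCs and of 25.5 in NCs. All 3 remained lower with equal sums, and 15.3%, 24.4% and 21.6% of measured genes had a lower ratio than Fdft1, Sqle and Lss. Exons of Fdft1 overlap those of Ctsb on the opposite strand over 774 bases, 18.3% of its exon sequence, and strand use in counting is not stated. Of the 50-base words in Fdft1 transcripts, 26.5% also occur in other genes, so its level is less certain too. Ctsb, a cathepsin gene, had an FPKM of 22.5 in ESCs and of 23.3 in NCs.

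After lanosterol the genes did not share a direction. Cyp51, the lanosterol demethylase, had an FPKM of 26.4 in ESCs and of 22.8 in NCs, and Nsdhl, which acts in removal of the methyl groups, had an FPKM of 19.0 in ESCs and of 17.8 in NCs. Both were lower in NCs as deposited and higher with equal sums. Dhcr7, the last reductase of the route through 7-dehydrocholesterol, was 1.24-fold lower in NCs, with an FPKM of 41.7 in ESCs and of 33.8 in NCs. Its log2 ratio with equal sums was -0.011, close to equal. The other 3 genes had the higher value in NCs on both scales. Tm7sf2, a sterol reductase gene, had an FPKM of 25.2 in ESCs and of 31.3 in NCs, and 12.1% of its exon bases are also exon bases of Vps51 on the same strand. Hsd17b7, a ketosteroid reductase, had the lowest level of the 30 genes, an FPKM of 3.69 in ESCs and of 4.16 in NCs. Ebp, the sterol isomerase, was 1.56-fold higher in NCs, at 12.4 FPKM against 7.92 FPKM, and was the gene of the cholesterol arm past the 1.5-fold limit upward. The median log2 ratio was -0.33 over the mevalonate branch, -0.52 over the squalene and lanosterol genes and 0.04 over the genes after lanosterol.

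Over the whole cholesterol arm, 12 of 16 genes had the lower FPKM in NCs, and 8 of 16 did with equal sums. Of all measured genes, 52.4% had the lower FPKM in NCs as deposited, and 4204 of 12784 did with equal sums. The median log2 ratio was -0.27 as deposited and 0.03 with equal sums, against -0.04 and 0.26 for all measured genes, so 12 of the 16 genes lay below the median of all measured genes. The FPKM of the arm summed to 833 in ESCs and 687 in NCs.

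**Figure D3:**
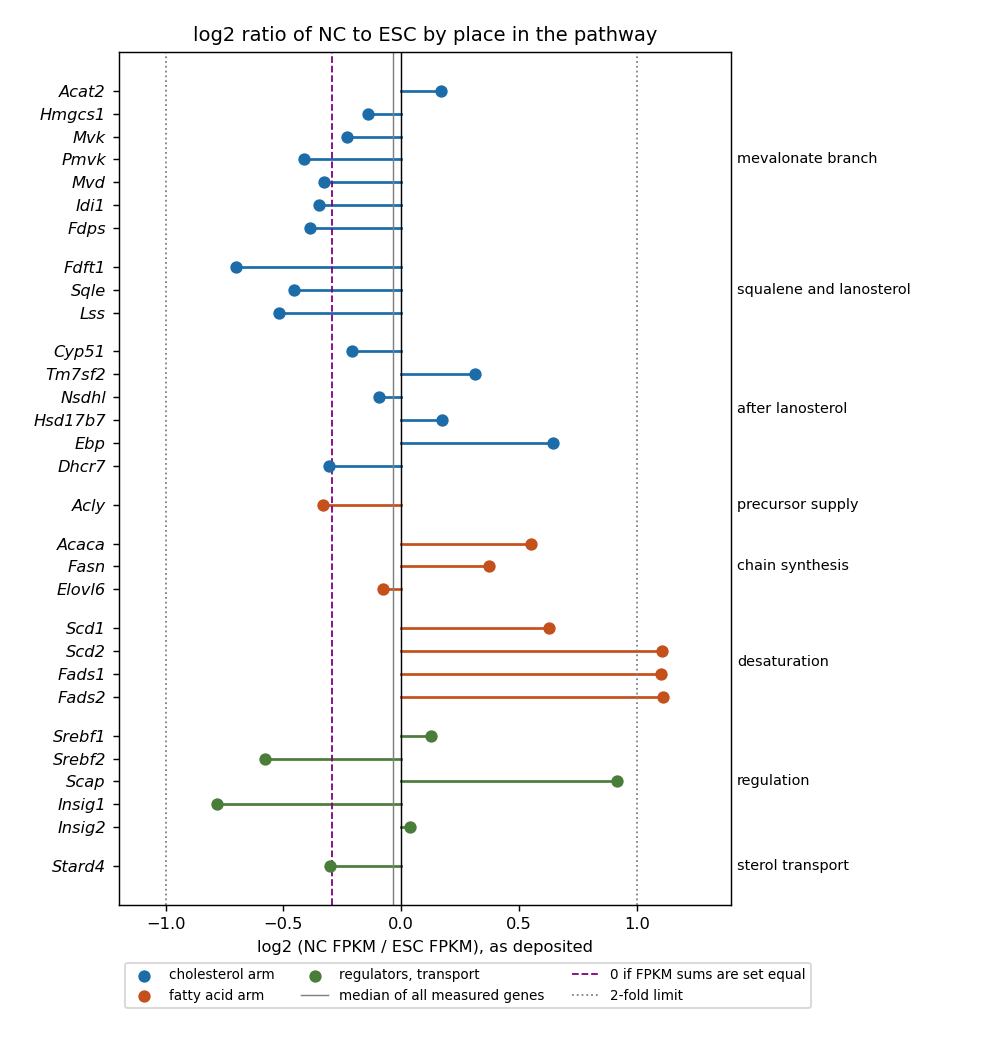
The log2 ratio of NC to ESC FPKM as deposited for each of the 30 genes, in pathway order and coloured by arm, without error bars because 1 value per condition is held. Dots left of the dashed line are lower in NCs also when the FPKM sums are set equal, which holds for all 3 squalene and lanosterol genes, and Scd2, Fads1 and Fads2 lie past the dotted 2-fold limit.

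In the fatty acid arm, Acly and Elovl6 had the lower value in NCs as deposited and the other genes the higher one. Acly, which makes cytosolic acetyl-CoA from citrate and so feeds both arms, had an FPKM of 162 in ESCs and of 128 in NCs. This 1.26-fold lower value became a log2 ratio of -0.04, close to equal, with equal sums. Acaca, the acetyl-CoA carboxylase of the committed step, had an FPKM of 17.3 in ESCs and of 25.3 in NCs, and Fasn, the fatty acid synthase, had an FPKM of 64.7 in ESCs and of 83.9 in NCs. Both were thus higher in NCs, by 1.47-fold and 1.30-fold, while 30.4% of the 50-base words of Acaca transcripts also occur in other genes. Elovl6, which lengthens saturated chains, had an FPKM of 29.5 in ESCs and of 28.0 in NCs, close to equal as deposited and higher in NCs with equal sums.

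The desaturases put double bonds into fatty acids. Scd1 and Scd2, the stearoyl-CoA desaturases, make monounsaturated fatty acids, and Fads1 and Fads2, the delta-5 and delta-6 desaturases, act in the making of polyunsaturated ones. Scd2 (chromosome 19, 44293674 to 44306864) had an FPKM of 129 in ESCs and of 278 in NCs, a 2.15-fold higher value. By level it had rank 4 of the 30 genes in ESCs and rank 1 in NCs. Scd1 (chromosome 19, 44394455 to 44407879), which lies 87591 bases from Scd2, had an FPKM of 35.6 in ESCs and of 55.1 in NCs, a 1.55-fold higher value. The level of Scd2 was 3.63 times that of Scd1 in ESCs and 5.05 times in NCs, so the ratio was larger for Scd2 than for its neighbour. Of the 50-base words in their transcripts, 4.56% of those of Scd1 and 3.97% of those of Scd2 are shared with other genes, including each other. The other genes of this family were low, with Scd3 at an FPKM of 1.12 in ESCs and of 0.578 in NCs and Scd4 at an FPKM of 0.160 in ESCs and of 0.163 in NCs.

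Fads1 and Fads2 differed between the conditions by nearly the same factor. Fads1 (chromosome 19, 10182888 to 10196877, plus strand) had an FPKM of 33.7 in ESCs and of 72.3 in NCs, a 2.15-fold higher value. Fads2 (chromosome 19, 10062765 to 10101746, minus strand) had an FPKM of 42.6 in ESCs and of 92.0 in NCs, a 2.16-fold higher value. The 2 genes point away from each other across 81142 bases, and the level of Fads2 was 1.26 times that of Fads1 in ESCs and 1.27 times in NCs. Fads1 transcripts hold no 50-base word of another gene, and 0.152% of those of Fads2 occur in Fads3. Fads3, the third gene of the family, was low but also higher in NCs, with an FPKM of 1.13 in ESCs and of 3.30 in NCs. Of measured genes, 81.9% had a lower ratio than Scd1, 90.2% a lower ratio than Scd2, 90.1% a lower ratio than Fads1 and 90.3% a lower ratio than Fads2.

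The FPKM of the 4 desaturases summed to 241 in ESCs and 498 in NCs. The whole fatty acid arm summed to an FPKM of 514 in ESCs and of 763 in NCs, a difference that lay with the desaturases. Acly had an FPKM of 162 in ESCs and of 128 in NCs. Acaca, Fasn and Elovl6 together summed to an FPKM of 111 in ESCs and of 137 in NCs. Of the arm's 8 genes, 6 had the higher value in NCs, beside 6081 of the 12784 measured genes. With equal sums 1 of the 8 was lower, beside 4204 of the 12784. The median log2 ratio of the arm was 0.59. It lies 0.86 above that of the cholesterol arm, a gap that does not depend on the scale. A wider difference lay between Fads1, among the highest ratios of the fatty acid arm, and Fdft1, the lowest of the cholesterol arm. The ratio of Fads1 to Fdft1 was 0.726 in ESCs and 2.53 in NCs, a 3.49-fold change. These 2 genes were chosen after their values were seen.

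**Figure D4:**
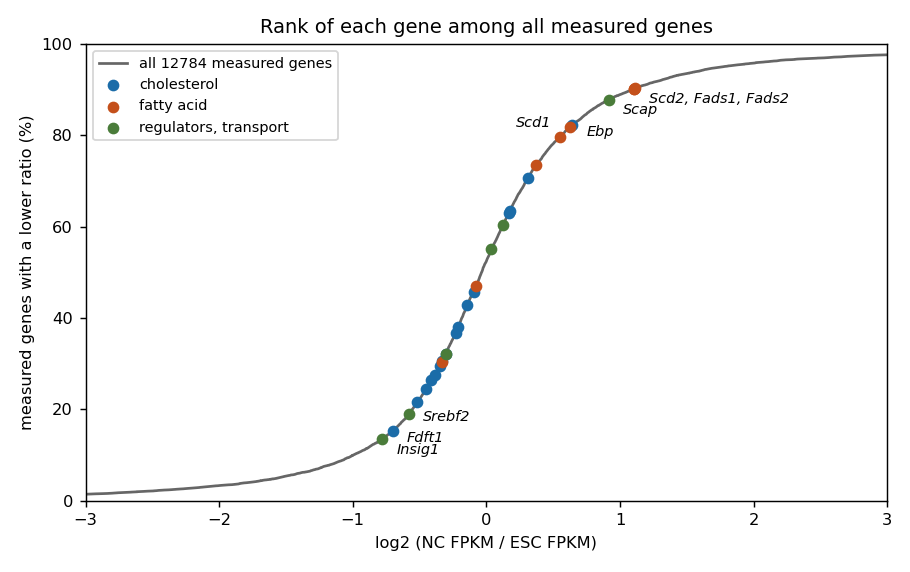
Each gene's log2 ratio of NC to ESC FPKM against the percentage of 12784 measured genes with a lower ratio (grey curve: all measured genes), coloured by arm. Cholesterol genes lie between Fdft1, with 15.3% of genes below it, and Ebp, with 82.3%, while Scd2, Fads1 and Fads2 share a place near 90%.

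The regulators differed from each other in direction. Srebf2 (chromosome 15, 82147181 to 82205379) encodes SREBP2, the main activator of cholesterol genes, and had an FPKM of 90.1 in ESCs and of 60.3 in NCs, a log2 ratio of -0.58 that falls just short of the 1.5-fold limit, with 19.0% of measured genes below it. Srebf1 (chromosome 11, 60199089 to 60222581), whose SREBP1 proteins favour fatty acid genes, had an FPKM of 29.2 in ESCs and of 31.9 in NCs. The level of Srebf2 was therefore 3.08 times that of Srebf1 in ESCs and 1.89 times in NCs. Insig1 (chromosome 5, 28071363 to 28078662), which retains SREBPs and is itself an SREBP target, had an FPKM of 82.7 in ESCs and of 48.1 in NCs. This 1.72-fold lower value was the lowest ratio of the 30 genes, and 13.4% of measured genes had a lower one. Its relative Insig2 hardly differed, with an FPKM of 9.82 in ESCs and of 10.1 in NCs.

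Scap (chromosome 9, 110333288 to 110384950), the SREBP escort, was 1.89-fold higher in NCs, with an FPKM of 10.9 in ESCs and of 20.6 in NCs. Of measured genes, 87.8% had a lower ratio. With equal sums the log2 ratio of Scap was 1.21, past the 2-fold limit. 5830462I19Rik, a transcript on the opposite strand, overlaps 13.2% of the exon bases of Scap. The level of Srebf2 was 8.26 times that of Scap in ESCs and 2.93 times in NCs, and that of Insig1 was 7.58 times that of Scap in ESCs and 2.34 times in NCs. Stard4, a sterol carrier and SREBP2 target, had an FPKM of 23.6 in ESCs and of 19.1 in NCs, a 1.23-fold lower value. Its log2 ratio with equal sums was -0.009, close to equal. Srebf2 and Insig1 were lower, and Srebf1, Insig2 and Scap higher, on both scales.

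Other genes of lipid synthesis, from a list that overlaps no member, gave 33 names in the table and 30 measured genes. Of these, 3 were at least 2-fold higher and 3 at least 2-fold lower in NCs, shares close to the 11.1% and 9.93% of all measured genes, with a median log2 ratio of -0.08 (0.21 with equal sums). Among the enzymes missing from the 30 genes, the sterol methyl oxidase gene Sc4mol had an FPKM of 76.4 in ESCs and of 60.5 in NCs. The late gene Sc5d lay on the other side, with an FPKM of 11.0 in ESCs and of 16.0 in NCs. These 2 genes, and Scd3 and Scd4 above, were named after their values were seen. Past the limit upward were Fads3, given above, and the elongase genes Elovl2, with an FPKM of 4.79 in ESCs and of 11.4 in NCs, and Elovl4, with an FPKM of 4.42 in ESCs and of 10.7 in NCs. Of the other elongase genes on the list, Elovl1 and Elovl5 were higher in NCs by less than 2-fold, Elovl7 was lower, and Elovl3 lay under 1 FPKM. On the lower side were Acacb, the carboxylase at mitochondria, with an FPKM of 4.31 in ESCs and of 1.22 in NCs, the phosphatidate phosphatase gene Lpin1, with an FPKM of 13.1 in ESCs and of 4.71 in NCs, and the acyl-CoA synthetase gene Acsl1, with an FPKM of 10.3 in ESCs and of 5.07 in NCs. With equal sums the log2 ratio of Acsl1 was -0.73, within the limit.

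The last lists hold genes for the removal, burning and storage of lipids. Of 7 measured genes of sterol efflux and LXR control, 6 were lower in NCs, beside 52.4% of all measured genes. At least 2-fold lower were 2 of the 7, beside 9.93% of all measured genes. Also with equal sums 6 of the 7 were lower, beside 4204 of the 12784 measured genes. Abcg1, a sterol exporter, had an FPKM of 7.41 in ESCs and of 1.35 in NCs, and Apoe, the lipid carrier protein, had an FPKM of 469 in ESCs and of 179 in NCs. The median log2 ratio of this list was -0.61, and -0.32 with equal sums. Of 17 measured fatty acid oxidation genes, 12 were lower as deposited and 3 at least 2-fold lower, beside 52.4% and 9.93% of measured genes. With equal sums 7 of the 17 were lower, beside 4204 of the 12784 measured genes. The median log2 ratio of this list was -0.22 as deposited and 0.07 with equal sums. Cpt1a, the gate for fatty acid entry into mitochondria, had an FPKM of 18.8 in ESCs and of 1.02 in NCs, an 18.4-fold lower value, with 0.602% of measured genes having a lower ratio. The acyl-CoA dehydrogenase genes Acadm and Acadl were 2.31-fold and 2.01-fold lower, and both were within the limit with equal sums. Of 13 measured genes of uptake, storage and trafficking, Soat2, which esterifies cholesterol, was past the limit, with an FPKM of 2.20 in ESCs and of 1.04 in NCs, and it too was within it with equal sums. The median log2 ratio of that list was -0.09, and 0.21 with equal sums.

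**Figure D5:**
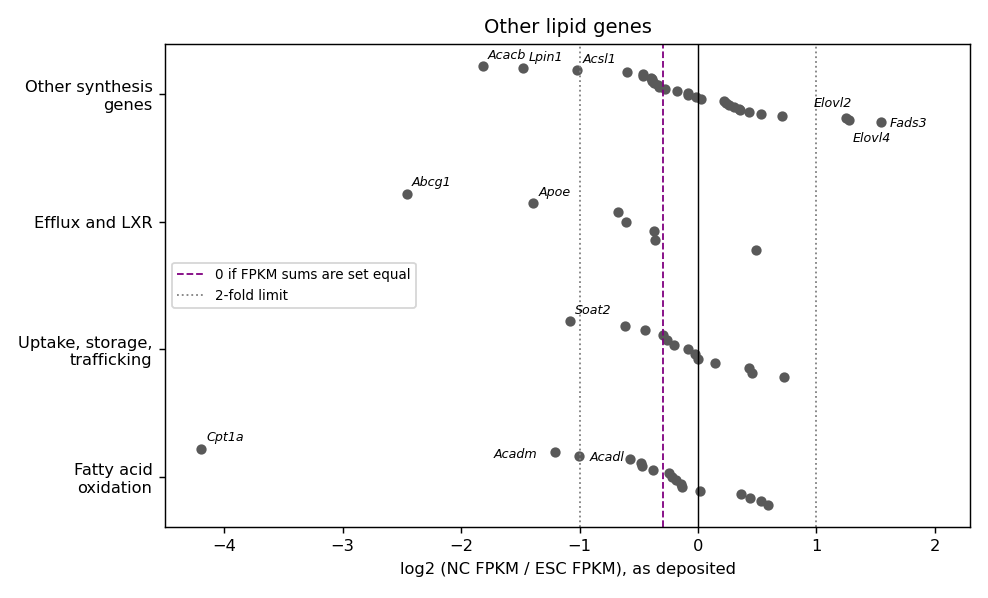
The log2 ratio of NC to ESC FPKM as deposited for measured genes of 4 other lipid lists, 1 dot per gene, with names for genes past the dotted 2-fold limit and a dashed line at the value that becomes 0 when FPKM sums are set equal. Cpt1a, 18.4-fold lower in NCs, stands far to the left, and Fads3, Elovl4 and Elovl2 are the genes past the limit to the right.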

How the data were processed

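RNA-seq of 6 samples (3 ESC, 3 NC) was analysed at the level of conditions. Reads were aligned by the authors to mm10 with Bowtie2 2.1.0 run by TopHat2 2.0.8, and the FPKM values deposited by the authors come from Cufflinks 2.0.2, Cuffmerge and Cuffdiff, 1 value per gene and condition. The heading of the NC column reads FPK and was taken as FPKM. The annotation release, the Cuffdiff normalization option and the strand setting are not given in the sources used here. The other columns of the table hold the authors' log2 fold change, test statistic, p-value, q-value and significance mark, and were not used.

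Log2 ratios were computed without a pseudocount for genes with a mean FPKM of at least 1, with limits of 2-fold and 1.5-fold and no test. Gene positions, exon overlaps and shared 50-base words came from GENCODE M21 on GRCm38, the assembly of mm10, and promoters from RefSeq. All 30 members, and of the other lists the genes past 2-fold with a mean FPKM of at least 1, could be named, and marker genes as well. Of the other lists, Sc4mol, Sc5d, Scd3, Scd4, Elovl1, Elovl3, Elovl5 and Elovl7 were named outside this rule. The members and lists were chosen with earlier results of these data known. The ratio step was tested on simulated data. Alternatives were 2 pseudocounts, 2 filters, 2 fold limits and 3 scales. Python 3.11.15, pandas 2.3.3, numpy 2.4.6 and matplotlib 3.10.9 were used.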

Additional observations from a re-analysis of the deposited data

How the results depend on the processing

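No paired analysis was possible because the table holds 1 value per condition, and for the same reason no replicate could be left out. Pseudocounts of 0.1 and 1, centring on the median, a minimum mean FPKM of 10 and, in its place, FPKM above 0 in both conditions turned no direction and moved no count by over 1.5 times. Centring moved the median over all members from -0.12 to -0.07. With a limit of 1.5-fold, 6 members were higher and 2 lower in NCs, and with a limit of 4-fold 0 were higher. With FPKM sums set equal, the median log2 ratio turned to 0.17 over all members and 0.027 over the cholesterol members. The same setting turned Cyp51 to 0.083, Elovl6 to 0.22, Hmgcs1 to 0.15, Mvk to 0.065 and Nsdhl to 0.20. By construction it adds the same amount to every gene. An alternative chosen after seeing the data left out the 60 genes among the 50 most abundant of either condition before the sums were set equal, which held 31.6% of the ESC sum and 27.8% of the NC sum. It gave a median of 0.10 over all members and kept that of the cholesterol members below 0, at -0.05, and turned Cyp51 to 0.0046, Elovl6 to 0.14, Hmgcs1 to 0.074 and Nsdhl to 0.12. The lack of single-sample values limits all of these results.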
